A study of Mus musculus with 15 samples.

Results

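The longest interval of the study, adult against 3 days post partum (dpp), was examined in wild-type (WT) mouse testes, gene by gene, with the 7 dpp libraries used to see which changes were already present at 7 dpp and which were undone afterwards. The adult group had 2 libraries (numbers 7 and 9), made from mice 2 to 3 months old. The 3 dpp group had 3 libraries (13, 14 and 15), and the 7 dpp group between them had 2 (2 and 3). All these mice had the genotype Pou5f1-Gfp;WT. They carried a green fluorescent protein driven by the promoter of Pou5f1 (the gene of OCT4, a pluripotency factor that germ cells keep), and cells positive for it were isolated by flow cytometry as spermatogonia after digestion with collagenase, DNase I and trypsin. The remaining libraries of this 15-library series carried the same reporter on an Akt1s1-null background (KO) at 3 dpp, 7 dpp and adult age. They enter the fit that gives each gene its spread, and so bear on the SEs and p-values of the WT comparisons. Otherwise they are used here only to set the KO interval beside the WT one. The sort rests on 1 reporter, so each library holds whatever cells were positive at that age, and nothing in the labels ties a library to a separate animal. The p-values therefore weigh a change against no more than the spread between libraries of the same group, pooled over all groups of the series. That spread may be technical, and variation among KO or 7 dpp libraries alone also raises it.

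Of 27128 gene names, 16721 reached a signal of 1 in 2 or more of the 5 adult and 3 dpp libraries and were tested, and 10407 were not, among them 3426 listed at 0 in all 5. The signal is the deposited value per gene, per transcript length and scaled per library. At the edge of the filter, Aox3 (1.001 and 1.287 in adults, at most 0.12 at 3 dpp) lay just inside, and Capn3 (0.379 and 0.411 in adults, and 0.849, 1.564 and 0.999 at 3 dpp) just outside. The filter let in 1163 genes through the adult libraries alone and 571 through the 3 dpp libraries alone.

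In the mouse, germ cells that enter the testis in fetal life (prospermatogonia) resume division around birth and give rise to the stem cells of the adult testis. Undifferentiated spermatogonia are held by GDNF from Sertoli cells, which acts through the receptor pair GFRA1 and RET and induces factors such as ETV5, BCL6B and LHX1. Retinoic acid moves progenitors to KIT-positive, STRA8-positive differentiating cells, which go on to meiosis. In the neonatal testis germ cells later than spermatogonia are not yet present, whereas the adult testis holds spermatocytes and the round and elongating spermatids that replace histones with transition proteins and protamines and build the acrosome and flagellum.

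The adult libraries had 16312 and 15933 genes at a signal of at least 1, and the 3 dpp libraries 15186, 15263 and 14744. On log2(signal + 1), libraries of the same age correlated across genes with r of 0.985 in adults and 0.984 to 0.988 at 3 dpp, and libraries of different ages with 0.846 to 0.895. The values keep no read number, so the depth is unknown. Pou5f1 itself, which carries the promoter of the reporter, read 173, 158 and 234 at 3 dpp, 550 and 945 at 7 dpp, and 250 and 433 in adults. The adult values lay above those at 3 dpp, but the log2 difference of 0.82 ± 0.38 (SE) did not pass the threshold (limma adjusted p = 0.084). It passed when the 5 libraries were fitted alone (adjusted p = 0.033). The germ cell gene Ddx4, an RNA helicase, was present in every library (333 and 382 in adults, and 510, 555 and 581 at 3 dpp).

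With all 5 libraries, 53.3% of the genes that passed were higher in adults, and changes of at least 4-fold were more often gains, except without adult library 7. At an adjusted p below 0.05 (limma with Benjamini-Hochberg adjustment over all genes tested), 4514 genes were higher in adults (27% of those tested) and 3959 were lower (23.7%), together 8473 or 50.7%. The median log2 change over all genes was 0.02. In 11656 genes (69.7%) the values of adult and 3 dpp libraries did not overlap. Changes of at least 4-fold numbered 1208 (7.22%), of which 919 were gains (5.5%) and 289 losses (1.73%). Of those 919 genes, 548 had a signal under 1 in all 3 libraries at 3 dpp, and so entered the test through the adults alone and could only be higher there, and 97 were listed at 0 at 3 dpp. They held 6.08% and 3.34% of the summed signal of adult libraries 7 and 9, against 0.23%, 0.18% and 0.16% in the 3 dpp libraries. The 289 genes held 0.21% and 0.2% in adults, and 1.35%, 1.47% and 1.05% at 3 dpp. Every change was computed from log2(signal + 1), a scale that makes the changes of low genes look smaller. With adult library 7 left out, 290 genes were at least 4-fold higher and 308 lower, and with adult library 9 left out 427 higher and 290 lower, the gains being fewer partly because a gene seen in adults alone cannot reach 2 libraries when 1 adult library remains. Dividing each library by its total moves the median of all genes to 0.20 and gives 6019 higher and 2835 lower genes, so small changes of large families are read below against that shift.

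**Figure D1:**
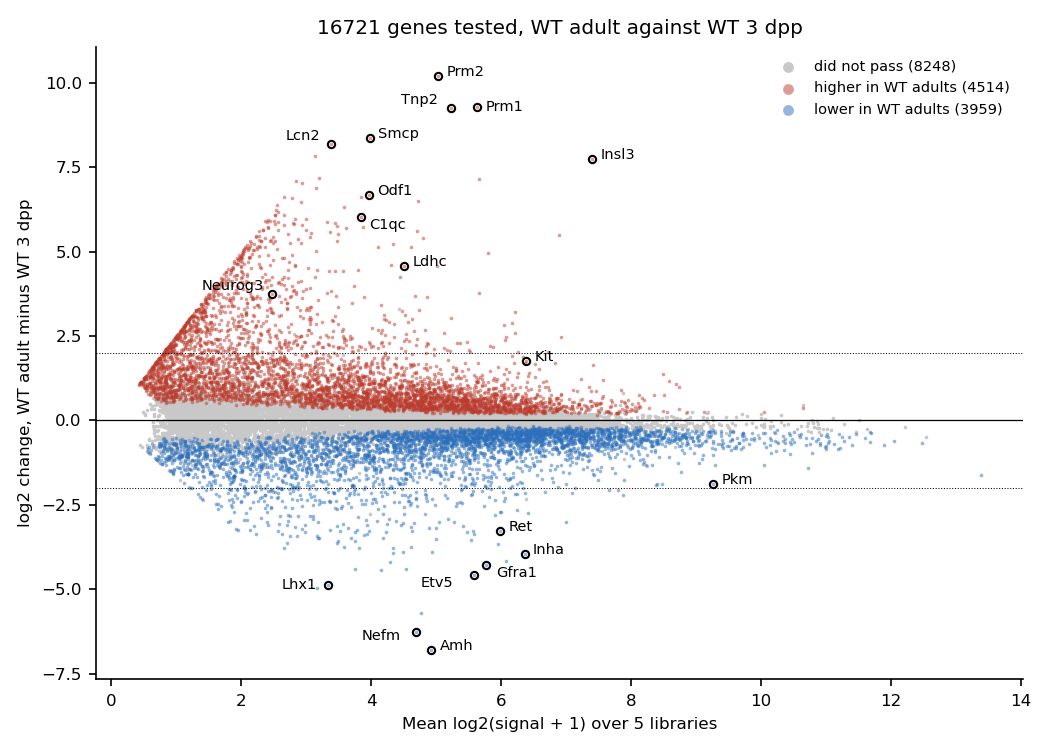
Log2 change of each tested gene (adult minus 3 dpp, vertical axis) against its mean log2(signal + 1) over the 5 libraries (horizontal axis). Red points are the 4514 genes higher in adults, blue points the 3959 lower in adults and grey points those that did not pass; dotted lines mark 4-fold changes, and the widest departures are upward (Prm2, 10.21) at genes of sperm formation and downward at Amh (-6.81).

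The clearest losses among germ cell genes were in GDNF and FGF signalling. Of 25 tested genes of that list, 15 fell and 4 rose in adults, with a median log2 change of -1.80, and 15 fell again with any 1 of the 5 libraries left out, while 2 rose without 3 dpp library 14. The filter let in 3 of the 25 through the 3 dpp libraries alone, and these could only be lower in adults. The receptor Gfra1 had a signal of 169, 212 and 154 at 3 dpp, 12.8 and 18.7 at 7 dpp, and 8.01 and 8.43 in adults. The 3 ages did not overlap, which for adults against 3 dpp was a condition of the rule that named it. The adult level was -4.27 ± 0.53 on the log2 scale relative to 3 dpp (adjusted p = 2.9e-05). Its signalling partner Ret, a receptor tyrosine kinase, read 154, 171 and 141 at 3 dpp, 25.0 and 32.6 at 7 dpp, and 13.8 and 16.8 in adults, with a log2 change of -3.27 ± 0.35 (adjusted p = 9.6e-06). Neither receptor passed between 7 dpp and adults (adjusted p = 0.30 and 0.10). Gdnf, the ligand, which Sertoli cells make, was low throughout, at 0.794 and 0.584 in adults against 5.91, 6.48 and 3.10 at 3 dpp, and fell by 1.82 on the log2 scale (SE 0.29, adjusted p = 0.00020).

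The transcription factors induced by GDNF fell with its receptors. Etv5, an ETS-family factor needed for stem cell renewal, had a signal of 173, 193 and 144 at 3 dpp, 16.1 and 19.7 at 7 dpp, and 6.37 and 6.04 in adults. Lhx1, a LIM homeobox factor, read 39.7, 56.7 and 23.6 at 3 dpp, 0.662 and 1.02 at 7 dpp, and 0.406 and 0.256 in adults. Relative to 3 dpp the adult log2 changes were -4.56 ± 0.57 for Etv5 and -4.86 ± 0.51 for Lhx1, and most of each was present at 7 dpp (-3.17 and -4.40). Etv4 (-4.16 ± 0.53), Bcl6b (-2.91 ± 0.30) and the inhibitor of helix-loop-helix factors Id4 (-3.65 ± 0.36) also fell. Id4, whose expression marks stem cells, stood at 178, 185 and 148 at 3 dpp, 17.4 and 21.5 at 7 dpp, and 11.1 and 14.2 in adults. Negative regulators of the same kinase cascade fell too, among them the phosphatase Dusp6 (14.5 and 8.52 in adults, and 121, 122 and 108 at 3 dpp), Spry4 (-3.41 ± 0.48) and Spry1 (-1.80 ± 0.26).

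The list did not fall as a block. Among FGF receptors, Fgfr1 read 30.1 and 28.2 in adults against 30.6, 28.8 and 29.2 at 3 dpp, a log2 difference of -0.02 ± 0.15 that did not pass (adjusted p = 0.93), whereas Fgfr3 rose by 0.92 ± 0.13. Csf1r, the receptor of a growth factor that in this tissue also defines macrophages, had 99.5 and 34.2 in adults and at most 1.10 at 3 dpp. At 7 dpp, 13 genes of the list were below 3 dpp and 2 above (11.3% and 8.4% of all tested genes at that age). In bulk libraries, fewer cells of a type and less RNA of a gene per cell cannot be told apart.

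Over the wider list of undifferentiated spermatogonia, 23 of 36 tested genes fell, 5 rose and 8 did not pass, with a median of -1.38. The filter let in 2 of the 36 through the 3 dpp libraries alone. The surface markers fell by unequal amounts: Thy1 by 3.31 (SE 0.34), the adhesion molecule Mcam by 1.88 (SE 0.21), Cdh1 by 1.86 (SE 0.27), the integrin Itga6 by 1.72 (SE 0.17) and Epcam by 0.82 (SE 0.18), all on the log2 scale. Several core factors did not pass in either direction. Zbtb16 (PLZF), a repressor needed to keep stem cells, read 73.6 and 84.9 in adults and 89.2, 79.6 and 91.0 at 3 dpp, and Foxo1 read 90.6 and 101 in adults and 94.2, 92.3 and 90.5 at 3 dpp. The log2 differences were -0.13 ± 0.16 and 0.05 ± 0.12, and both pairs of groups overlapped. Sall4 (-0.21 ± 0.13), Nanos3 (0.23 ± 0.30) and Utf1 (-0.24 ± 0.38) did not pass either. Nanos2, an RNA-binding factor of the most primitive cells, was low at both ages and fell, with 0.884 and 1.69 in adults and 7.67, 7.04 and 9.16 at 3 dpp.

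The genes of this list that rose were mostly those of progenitors. Neurog3, a helix-loop-helix factor that marks progenitors, had a signal of 0.522, 0.702 and 1.91 at 3 dpp, 21.7 and 23.1 at 7 dpp, and 21.5 and 30.1 in adults. Rarg, the retinoic acid receptor of progenitors, read 15.4, 15.8 and 24.6 at 3 dpp, 62.2 and 74.6 at 7 dpp, and 73.5 and 94.2 in adults. In both genes the 3 dpp libraries lay below all others, while 7 dpp and adult values lay close together. The adult log2 changes relative to 3 dpp were 3.75 ± 0.42 for Neurog3 (adjusted p = 1.3e-05) and 2.13 ± 0.25 for Rarg (1.8e-05). Upp1 rose by 2.24 ± 0.36 and the X-linked Sox3 by 1.65 ± 0.39. The fifth gene, the RNA-binding protein Lin28a, rose by 0.44 ± 0.13 (adjusted p = 0.010), but did not pass without adult library 9 (0.22).

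Differentiating spermatogonia genes were higher in adults in 11 of 15 cases and lower in 2, with a median of 0.80. Kit, the receptor that defines these cells, read 52.7, 45.2 and 52.5 at 3 dpp, 138 and 135 at 7 dpp, and 176 and 168 in adults, and was 1.76 ± 0.15 above 3 dpp on the log2 scale (adjusted p = 1.8e-06). Stra8, the retinoic acid-induced gene of meiotic entry, read 268, 195 and 280 at 3 dpp, 727 and 798 at 7 dpp, and 616 and 658 in adults. Its adult change was 1.38 ± 0.18. Crabp1 (1.16 ± 0.15), Dnmt3b (1.13 ± 0.13) and Sohlh1 (0.49 ± 0.09) also rose, each already above 3 dpp at 7 dpp.

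Other genes of this list were still rising after 7 dpp. Dmrtb1, which times the end of the spermatogonial divisions, read 27.2, 21.2 and 41.8 at 3 dpp, 84.0 and 63.8 at 7 dpp, and 216 and 206 in adults. The X-linked homeobox gene Esx1 read 9.37, 11.6 and 8.44 at 3 dpp, 24.6 and 17.5 at 7 dpp, and 112 and 95.4 in adults. Both rose at each step, by 2.82 ± 0.28 and 3.29 ± 0.27 over the whole interval. Prss50, a testis protease, stayed at 5.6 and 4.7 at 7 dpp, within the 3 dpp values of 6.19, 9.62 and 5.0 or just below them, and stood at 94.5 and 46.0 in adults. The cyclin gene Ccnd2 went the other way, with 55.3 and 65.8 in adults against 252, 272 and 210 at 3 dpp (-2.0 ± 0.19). The other gene that fell, the RNA-binding protein Dazl, did so by 0.37 (SE 0.11), and did not pass without adult library 7 (adjusted p = 0.10) or after quantile normalization (0.56).

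**Figure D2:**
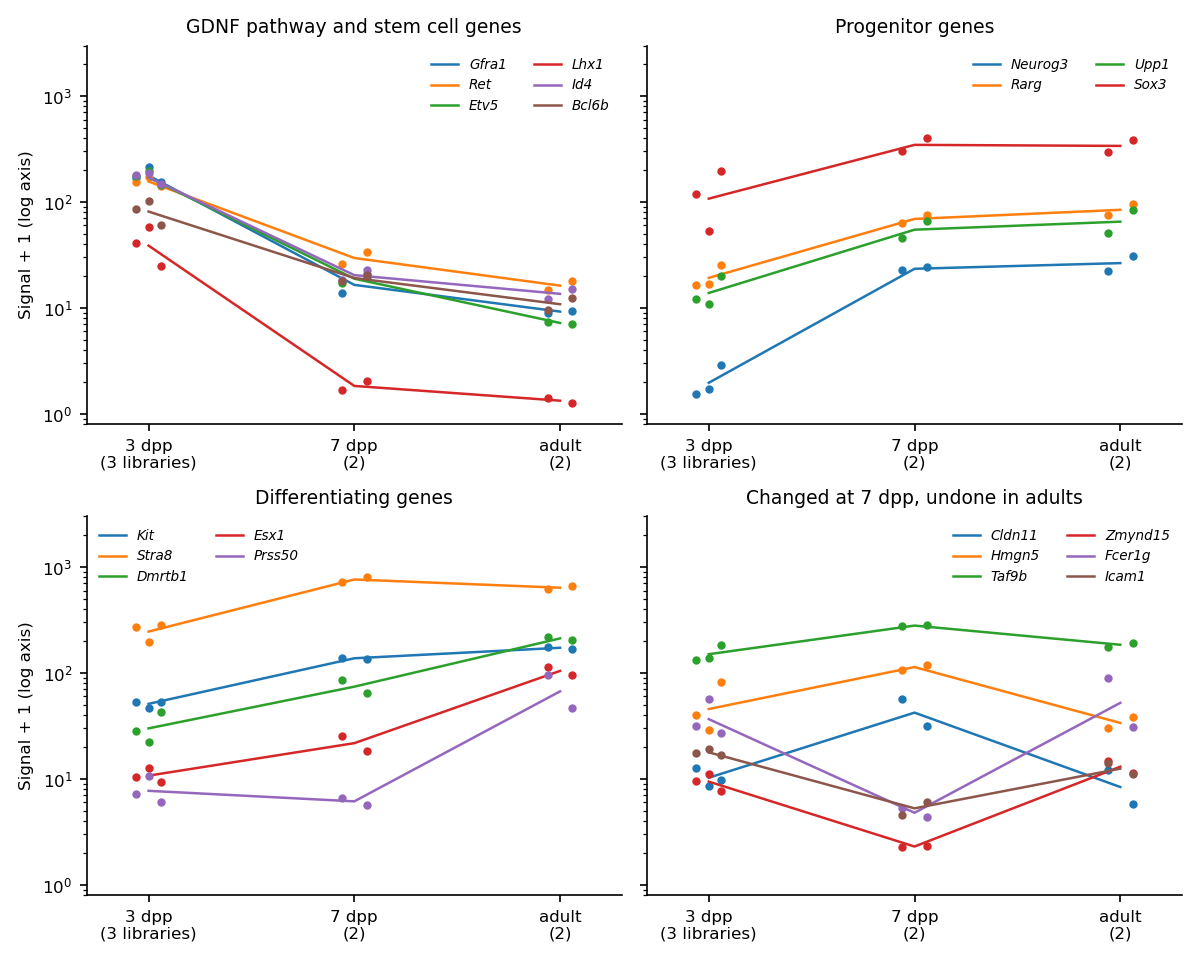
Signal + 1 (log axis) in every WT library at 3 dpp, 7 dpp and adult age, with lines through the means on the log scale, in panels for GDNF-induced and stem cell genes, progenitor genes, differentiating genes and genes whose 7 dpp change was undone. Gfra1, Etv5, Id4 and Lhx1 drop mostly between 3 and 7 dpp, Neurog3 and Rarg rise in the same step and stay, Esx1 and Prss50 rise mainly after 7 dpp, and in the last panel the adult points return to near the 3 dpp level.

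Genes of retinoic acid and KIT signalling moved in both directions, to be read beside the 27% higher and 23.7% lower of all tested genes. Of 23 tested retinoic acid genes, 10 rose and 3 fell (median 0.35), and 1 fell without adult library 7. The filter let in 2 of the 23 through the 3 dpp libraries alone. The synthetic enzyme Aldh1a2 had 51.0 and 51.5 in adults against 22.2, 21.4 and 19.9 at 3 dpp and rose by 1.24 ± 0.22. The degrading enzymes Cyp26a1 (0.82 ± 0.30) and Cyp26b1 (0.82 ± 0.29) rose as well, while the transporter of retinol Stra6 fell, with 1.30 and 0.539 in adults against 10.9, 10.7 and 5.93 at 3 dpp (-2.39 ± 0.50). Rara, the other retinoic acid receptor of the testis, did not pass (36.2 and 39.0 in adults, and 41.2, 40.9 and 42.3 at 3 dpp). Of 16 KIT pathway genes, 3 rose (Kit, Akt1 and Lyn) and 8 fell; with adult library 7 left out, 4 of 15 fell. Scaled to equal totals, 5 KIT pathway genes rose and 5 fell, so the excess of falls depends on the scale. The ligand Kitl, which Sertoli cells make, had 1.95 and 1.38 in adults against 14.6, 15.2 and 13.6 at 3 dpp. Akt1 rose to 153 and 166 in adults, against 75.7, 64.0 and 75.3 at 3 dpp (1.15 ± 0.12), and the catalytic subunit Pik3ca fell by 1.17 (SE 0.15).

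Genes of prospermatogonia fell more often than they rose, 8 against 2 of 15 tested (median -0.36), with 1 rising when adult library 7 or 9 was left out. Dppa4, a gene of pluripotent and early germ cells, read 104, 115 and 101 at 3 dpp, 53.2 and 55.4 at 7 dpp, and 22.8 and 30.4 in adults, stepping down at each age to -1.98 ± 0.14 (adjusted p = 5.1e-07). Tex19.1, which restrains retrotransposons, had 211 and 223 in adults and 379, 389 and 449 at 3 dpp (-0.89 ± 0.10). Dppa3 (Stella) went the other way: it was under 1 in all 3 dpp libraries and stood at 13.2 and 10.6 at 7 dpp and 13.4 and 13.5 in adults. The second gene that rose, Tdrd9, is a helicase of the piRNA pathway (0.76 ± 0.17).

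The piRNA pathway, which silences transposons in germ cells through PIWI proteins and small RNAs, had 6 of 23 tested genes higher and 7 lower in adults (median -0.01), near the 27% and 23.7% of all tested genes. Gtsf1 (-0.67 ± 0.11), Asz1 (-0.63 ± 0.09) and Ddx4 (-0.62 ± 0.09) fell, while Pld6, the nuclease that starts piRNA formation (0.66 ± 0.12), Henmt1, which methylates piRNA ends (0.94 ± 0.16), and Tdrd6, a spermatid granule protein (2.16 ± 0.40), rose. At 7 dpp, 9 genes of this list were above 3 dpp and 0 below. Of 15 DNA methylation genes, 3 rose and 6 fell, 2 with adult library 7 left out. Dnmt3b, a de novo methyltransferase, had 127 and 141 in adults and 57.5, 57.5 and 67.5 at 3 dpp. The oxidase Tet3 had 45.8 and 40.7 in adults and 15.3, 13.8 and 13.3 at 3 dpp (1.55 ± 0.15). Uhrf1, which guides maintenance methylation, fell by 0.78 (SE 0.14), and Tet1, at 0.217 and 0.274 in adults against 1.31, 1.32 and 1.01 at 3 dpp, was low throughout. The methyltransferase partner of prospermatogonia Dnmt3l read 3.44 and 6.01 in adults and 5.55, 9.29 and 4.47 at 3 dpp and did not pass (-0.36 ± 0.37).

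Meiotic prophase genes were already present at 3 dpp. In the list of chromosome axis and synapsis genes, 5 of 20 rose and 4 fell (median -0.01), and in the list of recombination genes 6 of 24 rose and 4 fell (median 0.06). These counts lay near or below the 27% higher and 23.7% lower of all tested genes. Scaling to equal totals gives 9 rising and 0 falling axis genes, so the falls in that list depend on the scale, and without single libraries 7, 9, 13 or 14 only 2, 1, 2 and 2 axis genes fell. Sycp3, a core axis protein, had 289 and 287 in adults against 188, 180 and 217 at 3 dpp (0.57 ± 0.12). Sycp1, its partner in the synaptonemal complex, had 187 and 169 in adults against 177, 163 and 191 at 3 dpp, with overlapping groups (0.01 ± 0.11). Dmc1, the meiotic recombinase, likewise overlapped, with 41.3 and 37.3 in adults and 35.5, 46.4 and 37.8 at 3 dpp (-0.01 ± 0.12). The clearest gains were Prdm9, the methyltransferase that places recombination sites, with 11.7 and 7.83 in adults and 1.99, 2.39 and 2.49 at 3 dpp (1.69 ± 0.27), and Meioc, needed for an extended meiotic prophase, with 61.3 and 43.0 in adults and 14.7, 19.3 and 13.3 at 3 dpp (1.66 ± 0.22). Mnd1 (-0.99 ± 0.21) and Hsf2bp (-0.92 ± 0.11) fell. In the recombination list 1 gene rose and 2 fell without adult library 7, and 3 rose without 3 dpp library 13.

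Genes of later germ cells rose more often than they fell. Of 23 genes of pachytene and later spermatocytes, 15 rose and 1 (Tktl2, a transketolase-like gene) fell, with a median of 1.5, 4 of the 23 having passed the filter through the adult libraries alone. Ybx2, which stores mRNAs in spermatocytes and spermatids, had 299 and 194 in adults and 17.3, 20.5 and 13.4 at 3 dpp (3.76 ± 0.31). Hspa2, a chaperone of spermatocytes, had 79.3 and 70.5 in adults and 23.8, 27.2 and 22.9 at 3 dpp. The A-type cyclin of meiosis Ccna1 read 1.88, 1.71 and 2.03 at 3 dpp, 7.26 and 5.52 at 7 dpp, and 18.2 and 13.6 in adults (2.55 ± 0.31). The sperm surface proteins Adam2 (3.46 ± 0.44) and Adam3 (5.34 ± 0.37) had at most 0.271 and 0.151 in any younger WT library. Of 20 spermatid transcription regulators, 12 rose and 1 fell, with a median of 0.69, 1 of them let in by the adults alone. Fhl5, the co-activator of CREM in spermatids, had 20.6 and 13.1 in adults and at most 0.153 at 3 dpp. Crem itself had 12.4 and 10.2 in adults and 5.30, 4.16 and 5.68 at 3 dpp, a change of 1.03 ± 0.29 (adjusted p = 0.010) that did not pass without adult library 7 (0.090). Kif17 (2.70 ± 0.21) and the germ cell TFIIA subunit Gtf2a1l (3.11 ± 0.39) rose. The gene that fell, Mael, did so by 0.31 (SE 0.10), and did not pass when scaled to equal totals (adjusted p = 0.28) or without adult library 7 (0.18) or 3 dpp library 14 (0.050) or 15 (0.065).

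The highest log2 changes of all tested genes were those of 3 genes that package sperm DNA. Prm2, a protamine, had 3306 and 1564 in adults and 0.604, 0.983 and 1.24 at 3 dpp. Prm1, the other protamine, had 3564 and 1553 in adults and 1.67, 2.21 and 5.19 at 3 dpp. Tnp2, a transition protein, had 2653 and 1141 in adults and 1.60, 1.51 and 2.63 at 3 dpp. The rule that named these 3 genes required every adult library to lie apart from every 3 dpp library. In all 3 the adult values were far the higher, and adult library 7 lay above adult library 9. The log2 changes were 10.21 ± 0.42, 9.29 ± 0.49 and 9.24 ± 0.47 (adjusted p at most 7.9e-08), and at 7 dpp none of the 3 had passed relative to 3 dpp. Tnp1 rose by 7.15 ± 0.62, the spermatid linker histones H1fnt and Hils1 by 6.23 ± 0.31 and 5.65 ± 0.33, and the histone variant gene H2al2a by 4.92 ± 0.33; related histone genes may share reads, which makes the last value uncertain. Of 17 tested genes of the list, 11 rose, with a median of 1.31, and 3 had entered through the adult libraries alone. Kdm3a, the demethylase that opens the Prm1 and Tnp1 promoters in mice, was the 1 gene that fell (59.2 and 61.4 in adults, and 87.4, 101 and 98.6 at 3 dpp). The ubiquitous replacement histone genes H3f3a and H3f3b did not pass (-0.20 ± 0.10 and -0.36 ± 0.16). The testis linker histone gene H1t had at most 0.429 in any WT library and was not tested.

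Because the packaging genes moved together, the 250 bases before their start sites are shown, with Iqcf3, another of the 15 largest gains, as the one shown with a complete CREM-type element, and Gfra1 from the losses. They are read 5′ to 3′ towards the gene from RefSeq windows on GRCm38.p6, and all 6 lie on the minus strand: Prm1 at chr16:10796824-10797073, Prm2 at chr16:10792106-10792355, Tnp2 at chr16:10788656-10788905, Tnp1 at chr1:73015900-73016149, Iqcf3 at chr9:106561627-106561876 and Gfra1 at chr19:58455399-58455648. Capitals mark matches to TGANNTCA, the palindrome frame of the cyclic AMP response element that CREM binds, or to TATAAA on either strand.
Prm1: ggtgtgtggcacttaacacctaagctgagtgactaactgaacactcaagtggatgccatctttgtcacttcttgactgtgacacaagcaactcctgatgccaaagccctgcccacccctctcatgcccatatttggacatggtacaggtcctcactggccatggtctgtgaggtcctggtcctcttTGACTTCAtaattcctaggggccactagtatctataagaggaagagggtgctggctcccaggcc
Prm2: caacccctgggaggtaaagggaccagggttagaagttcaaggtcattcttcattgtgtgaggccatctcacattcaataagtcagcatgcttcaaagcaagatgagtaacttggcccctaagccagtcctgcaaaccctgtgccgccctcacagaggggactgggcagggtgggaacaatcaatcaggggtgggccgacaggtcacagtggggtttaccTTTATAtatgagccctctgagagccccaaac
Tnp2: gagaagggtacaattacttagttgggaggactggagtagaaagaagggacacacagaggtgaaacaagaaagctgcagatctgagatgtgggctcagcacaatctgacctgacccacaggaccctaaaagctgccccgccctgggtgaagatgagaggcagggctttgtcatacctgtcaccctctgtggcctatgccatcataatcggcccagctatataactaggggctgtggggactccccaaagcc
Tnp1: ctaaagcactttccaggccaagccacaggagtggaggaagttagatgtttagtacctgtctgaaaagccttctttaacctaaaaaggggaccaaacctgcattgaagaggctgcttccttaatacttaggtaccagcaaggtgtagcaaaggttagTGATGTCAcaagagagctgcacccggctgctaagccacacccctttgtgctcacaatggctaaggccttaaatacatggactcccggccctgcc
Iqcf3: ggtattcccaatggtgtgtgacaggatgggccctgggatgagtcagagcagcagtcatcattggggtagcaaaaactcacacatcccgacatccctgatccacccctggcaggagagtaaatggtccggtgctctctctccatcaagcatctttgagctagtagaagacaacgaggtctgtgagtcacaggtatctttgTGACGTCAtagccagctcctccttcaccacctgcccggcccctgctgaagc
Gfra1: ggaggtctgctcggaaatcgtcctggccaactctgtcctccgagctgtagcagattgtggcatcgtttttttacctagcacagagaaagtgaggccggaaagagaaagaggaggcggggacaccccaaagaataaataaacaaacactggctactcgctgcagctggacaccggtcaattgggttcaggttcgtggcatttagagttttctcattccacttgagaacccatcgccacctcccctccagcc
The windows of Prm1, Prm2 and Tnp2 lie within 8.4 kb of each other on chromosome 16.

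In these windows, Prm1 held TGACTTCA with its first base at position -64 from the start and Tnp1 held TGATGTCA at -94. Iqcf3 held the full element TGACGTCA at -51. Prm2 held TTTATA, the reverse complement of TATAAA, at -31, and Tnp2 and Gfra1 held neither motif. Among other large gains, Hmgb4 held TGACATCA at -74. In its window at chr6:135254337-135254586, Gsg1 held TGACATCA at -35 and TGAAGTCA at -22. Its other window, at chr6:135247885-135248134, held neither motif. Of the 15 largest losses, 9 had a window, and only Epha2 held the frame, as TGACGTCA at -33; of the 15 largest gains, 12 had a window. Over windows of 300 bases (250 before to 50 after a start, both strands, TGACGTCA counted within TGANNTCA), the TGANNTCA frame was found in 24.555% of 786 windows of the genes at least 4-fold higher in adults and in 9.388% of 245 windows of those at least 4-fold lower. It was found in 10.987% of 14445 windows of all tested genes and in 14.115% of all 32851 windows. Windows were counted, not genes, so a gene with several starts counts more than once. The 786 windows came from 625 genes and the 245 from 188, and genes without a window were left out. The complete TGACGTCA was found in 1.654% of the windows of genes at least 4-fold higher and in 2.915% of those of all tested genes. The ETS motif CCGGAAGT was found in 0.763% of windows of the gains, 1.633% of the losses and 7.11% of all tested genes. TATAAA was found in 11.45% of windows of the gains, 10.204% of the losses and 7.442% of all tested genes. A match describes the letters of a window and does not show binding.

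Flagellum genes rose almost without exception, 32 of 33 tested and 0 fell, with a median of 2.05, although 16 of the 33 passed the filter through the adult libraries alone. Smcp, a cysteine-rich protein of the mitochondrial sheath, had 704 and 368 in adults and 0.276, 0.491 and 0.956 at 3 dpp (8.36 ± 0.40). Odf1, a main outer dense fibre protein, had 348 and 181 in adults and 2.46, 0.692 and 1.49 at 3 dpp (6.69 ± 0.42). Oaz3, the antizyme of spermatids, had 545 and 281 in adults and 4.56, 1.98 and 3.98 at 3 dpp (6.49 ± 0.38). The rule that named these genes required groups without overlap. In each case adult library 7 was the higher. The X-linked Akap4, an anchor of the fibrous sheath, rose by 5.88 ± 0.39. Axonemal and channel genes rose less, for example the dynein Dnah8 (1.57 ± 0.28), the tektin Tekt2 (1.59 ± 0.27) and the sperm calcium channel Catsper1, which had 5.86 and 4.10 in adults and at most 0.12 at 3 dpp (2.51 ± 0.29). Dnah1 did not pass (0.46 ± 0.19). At 7 dpp, 1 gene of the list (the kinase subunit Prkaca) was above 3 dpp and 0 below.

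Acrosome genes rose in 16 of 21 tested cases and fell in 1 (Gba2, -0.56 ± 0.18), with a median of 1.96; 11 of the 21 had passed through the adult libraries alone. Their levels stayed far below those of the packaging genes, on the same per-length scale. Acr, the acrosomal protease, had 9.47 and 8.39 in adults and at most 0.251 at 3 dpp, and Acrv1, an acrosomal membrane protein, had 11.7 and 9.97 in adults and at most 0.153 at 3 dpp. Sppl2c, a spermatid protease, had 53.0 and 21.7 in adults and at most 0.030 at 3 dpp (5.11 ± 0.35). Not every acrosome gene followed. Spaca1 had 16.3 and 14.9 in adults against 12.8, 12.3 and 12.1 at 3 dpp (0.31 ± 0.37) and Acrbp had 24.6 and 22.2 in adults against 18.0, 20.2 and 15.2 at 3 dpp (0.38 ± 0.45), and neither passed. At 7 dpp Acrbp was below 3 dpp, at 4.62 and 7.35 (-1.45 on the log2 scale). The genes Spaca4, Cylc1 and Izumo3 were listed at 0 in all 3 libraries at 3 dpp.

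**Figure D3:**
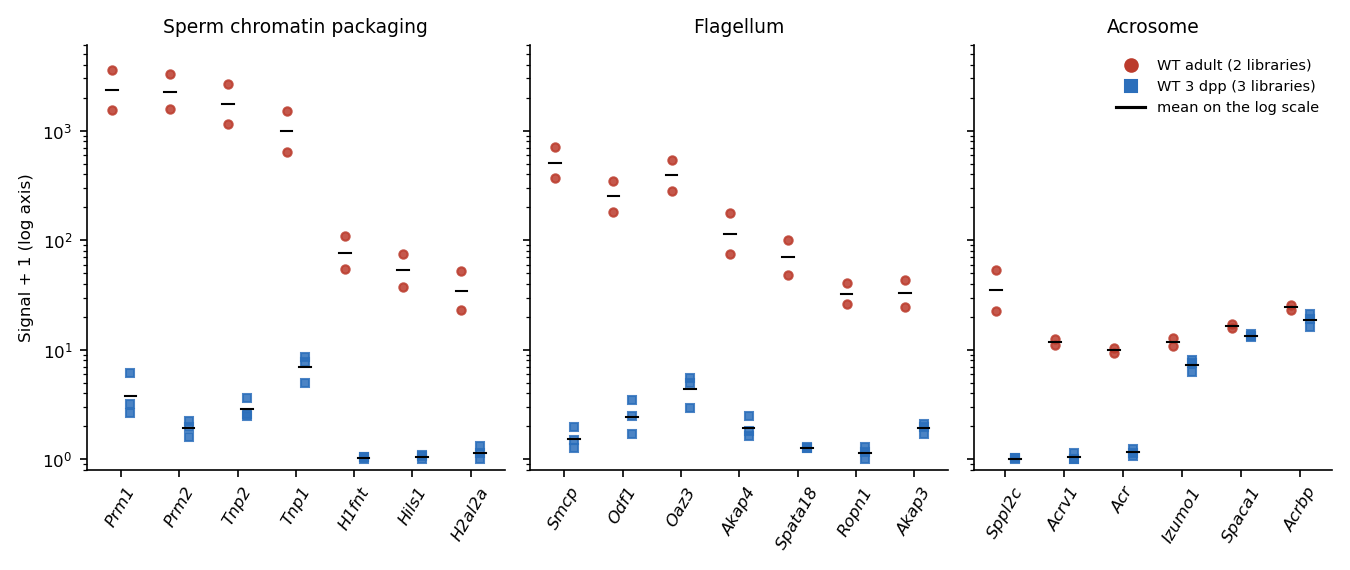
Signal + 1 (log axis) of 20 genes of sperm chromatin packaging, flagellum and acrosome in the 2 adult libraries (red circles, left of each pair) and the 3 libraries of 3 dpp (blue squares, right), with bars at the mean on the log scale. The protamines and Tnp2 stand at 1141 or more in both adult libraries, acrosome genes stay at or below 53.0, and Spaca1 and Acrbp are nearly level between the ages.

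With library 7 or 9 left out, the genes that had entered through the adults alone left the test: 13 and 14 flagellum genes of 17 then rose, 8 and 7 packaging genes of 14, and 3 and 4 acrosome genes of 10. The summed signal of the packaging list was 1.91 times higher in adult library 7 than in library 9, and that of the flagellum list 1.74 times. The same library also had the larger sums of markers of macrophages (3.12 times), Sertoli cells (1.92 times) and Leydig cells (1.43 times) and the smaller sum of the undifferentiated spermatogonia list (0.75 times). The part of later germ cells, or of their RNA, in the adult sorts was not tested.

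Energy genes of germ cells mostly rose in adults, and those of other tissues mostly fell. The part of later germ cells in this pattern was not tested. Of 18 tested enzymes and carriers of germ cells, 12 rose and 3 fell (median 2.40, 3 let in by adults alone), and of 22 glycolysis and energy genes of other tissues, 14 fell and 2 rose (median -0.60). Gapdhs, the sperm form of glyceraldehyde-3-phosphate dehydrogenase, had 392 and 186 in adults and 4.56, 4.34 and 4.64 at 3 dpp (5.62 ± 0.33). Gapdh, the form of other tissues, had 1395 and 1457 in adults and 2416, 2356 and 3024 at 3 dpp (-0.86 ± 0.13). Per transcript length Gapdh thus stayed the more abundant form at both ages. Pgk2, the autosomal phosphoglycerate kinase, had 90.8 and 48.2 in adults and 0.737, 1.2 and 0.456 at 3 dpp, while its X-linked counterpart Pgk1 read 36.4 and 35.8 in adults against 36.7, 34.2 and 34.5 at 3 dpp (0.04 ± 0.08, not passed). Pgk2 was the higher of the 2 in both adult libraries and Pgk1 in all 3 libraries of 3 dpp. Ldhc had 185 and 122 in adults and 6.74, 5.38 and 4.26 at 3 dpp (4.57 ± 0.39), and Ldhb fell by 1.93 (SE 0.28). Ldha, another form of other tissues, changed by 0.31 on the log2 scale. With single libraries left out its change was 0.07 to 0.48.

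Other members of both lists followed the same division only in part. Pkm, which carries out the last step of glycolysis, fell to 268 and 295 in adults, against 1005, 927 and 1183 at 3 dpp (-1.87 ± 0.19). The glucose transporter Slc2a1 (-1.45 ± 0.19) and Aldoa (-1.02 ± 0.11) fell, and the fructose transporter Slc2a5 (3.09 ± 0.39), the monocarboxylate carrier Slc16a7 (3.59 ± 0.35) and the glycerol kinase Gk2 (4.30 ± 0.37) rose. Hk1, which belongs to both lists because spermatids use their own form of it, rose by 1.71 ± 0.20. Against the trend of their list, the testis cytochrome c gene Cyct had 82.4 and 91.6 in adults and 244, 240 and 305 at 3 dpp (-1.58 ± 0.13), and Tktl2 (-1.04 ± 0.21) and Cox7b2 (-0.80 ± 0.16) also fell. Pdha2, the autosomal pyruvate dehydrogenase subunit, did not pass over the whole interval (-0.24 ± 0.23). At 7 dpp, 1 germ cell isozyme, Pdha2, was above 3 dpp and 0 below.

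**Figure D4:**
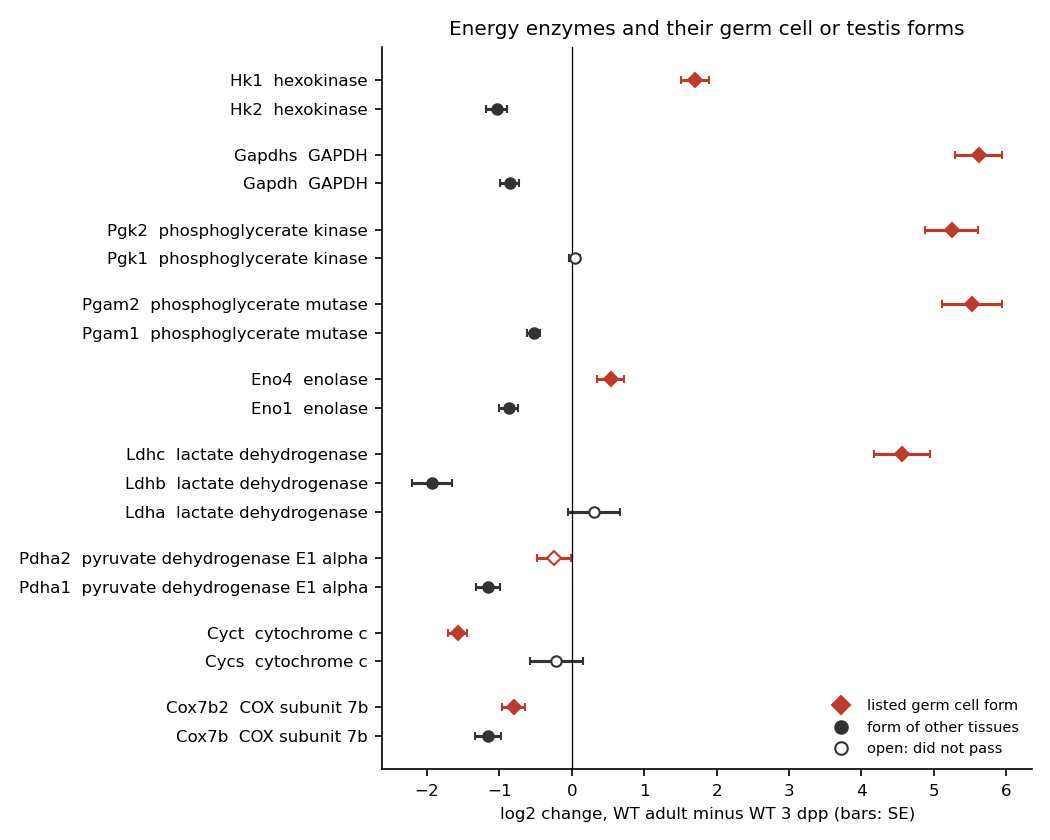
Log2 change (adult minus 3 dpp, ± SE) of energy enzymes and cytochrome c, red diamonds for forms of germ cells and black circles for forms of other tissues, open symbols where the change did not pass. Gapdhs, Pgk2, Pgam2 and Ldhc lie beyond 4, and most forms of other tissues lie below 0. Cyct, Cox7b2 and Pdha2 are the germ cell forms below 0, Pdha2 with an open symbol.

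Ribosomal protein genes were mostly lower in adults. Of 79 cytosolic ribosomal protein genes, 58 fell and 1 rose (median -0.55), and without adult library 7, 38 fell. Rpsa had 874 and 1016 in adults and 2439, 2368 and 2626 at 3 dpp (-1.39 ± 0.12), and Rpl39, on the X chromosome, had 108 and 80.2 in adults and 394, 367 and 416 at 3 dpp (-2.06 ± 0.22). The family has many near-identical copies that can share reads, so single members are uncertain, and Rps29 was listed at 0 in every WT library. Scaled to equal totals 48 fell and 2 rose, and after quantile normalization 40 fell and 8 rose. The single gene that rose, Rps27l, did not pass without either adult library (adjusted p = 0.24 without library 7 and 0.066 without library 9), nor without 3 dpp library 13 (0.087) or 14 (0.12). Of 80 oxidative phosphorylation genes, 35 fell, 3 rose and 42 did not pass (median -0.27), with 22 falling without adult library 7, 23 falling and 9 rising when scaled to equal totals and 20 against 12 after quantile normalization. Ndufb11 (-0.92 ± 0.13) and Atp5b (-0.67 ± 0.10) fell, and Cox6b2, a form of sperm, rose by 1.17 ± 0.17.

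Of 38 cell cycle genes, 27 fell and 4 rose (median -0.51), 18 fell and 2 rose without adult library 7, and 18 fell and 6 rose when scaled to equal totals. The mitotic kinase Cdk1 had 22.1 and 21.3 in adults and 47.6, 50.2 and 49.8 at 3 dpp (-1.15 ± 0.13). The kinase of the D-type cyclins Cdk4 fell by 1.30 (SE 0.13), and the replication helicase subunits Mcm3 and Mcm5 fell by 1.01 (SE 0.13) and 0.90 (SE 0.10). The other kinase of D-type cyclins went up: Cdk6 read 10.3, 7.30 and 12.4 at 3 dpp, 35.7 and 33.7 at 7 dpp, and 38.6 and 42.7 in adults (1.94 ± 0.22). Ccne2 (1.23 ± 0.16) and the inhibitors Cdkn2c (1.01 ± 0.28) and Cdkn2d (0.68 ± 0.20) were the others that rose. In the mTOR pathway, which couples nutrients to growth, 8 of 32 genes rose and 10 fell (median 0.08), near the 27% and 23.7% of all tested genes. Without adult library 7, 6 fell, and when scaled to equal totals 15 rose and 7 fell. The kinase Mtor had 114 and 117 in adults and 76.4, 74.3 and 65.1 at 3 dpp (0.68 ± 0.09), and its restraint Tsc2 rose by 0.54 ± 0.07. Ddit4, which restrains the pathway under stress, rose by 1.46 ± 0.29, and the kinase Rps6kb2 fell by 0.95 (SE 0.19). Akt1s1, the gene with a null allele in the KO mice, had 67.9 and 67.1 in the WT adults and 52.4, 51.0 and 49.4 at 3 dpp (0.40 ± 0.10).

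Markers of other testis cells differed between the ages. Of 22 Sertoli cell genes, 15 fell and 1 rose (median -1.94), and their summed signal was 488 and 255 in adults and 1652, 1697 and 1164 at 3 dpp. The filter let in 3 of the 22 through the 3 dpp libraries alone and 1 through the adult libraries alone. Amh, the hormone of immature Sertoli cells, was the gene with the largest fall of all those named, with 0.983 and 0.612 in adults and 231, 250 and 136 at 3 dpp (-6.81 ± 0.48, adjusted p = 3.8e-07). The inhibin subunit Inha had 19.3 and 11.4 in adults and 284, 282 and 183 at 3 dpp. Fshr, the receptor of follicle-stimulating hormone, had 0.244 and 0 in adults and 5.42, 5.50 and 4.70 at 3 dpp, and Sox9 fell by 2.02 (SE 0.40). Rhox8, Cst9 and Cst12, which belong to clusters of similar genes and are uncertain for that reason, fell as well. Both groups of libraries thus held Sertoli cell transcripts, and their part in the results for Gdnf and Kitl was not tested.

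Macrophage and Leydig cell transcripts were high in the adult libraries. Of 12 macrophage genes 11 rose and 0 fell (median 3.98), 7 of 10 rising without adult library 7, and their sums were 1717 and 550 in adults against 79.0, 78.5 and 57.8 at 3 dpp. The filter let in 2 of the 12 through the adult libraries alone. The complement gene C1qa had 225 and 74.5 in adults and 2.62, 0.572 and 1.82 at 3 dpp (5.69 ± 0.78), and Adgre1 (F4/80) had 21.7 and 6.44 in adults and at most 0.419 at 3 dpp (3.36 ± 0.53). The Leydig cell sums were 5676 and 3983 in adults against 733, 153 and 119 at 3 dpp, although 4 of 11 genes rose and 1 fell. Insl3, a peptide hormone of Leydig cells, made up most of that sum, with 5079 and 3517 in adults and 223, 5.90 and 3.94 at 3 dpp. Library 13 thus stood apart from libraries 14 and 15. The log2 change was 7.75 ± 1.62 (adjusted p = 0.0014). Hsd3b6, the adult steroid enzyme, had 69.8 and 51.2 in adults and at most 0.065 at 3 dpp. Cyp11a1, which starts steroid synthesis, had 91.0 and 77.2 in adults and 106, 1.36 and 1.47 at 3 dpp and did not pass (3.31 ± 1.73, adjusted p = 0.13), but without library 13 its change was 5.13 (adjusted p = 0.014), and 7 genes of the list then rose. The number of Leydig cell genes that rose was 1 without adult library 7, and 2 without adult library 9 or 3 dpp library 15.

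**Figure D5:**
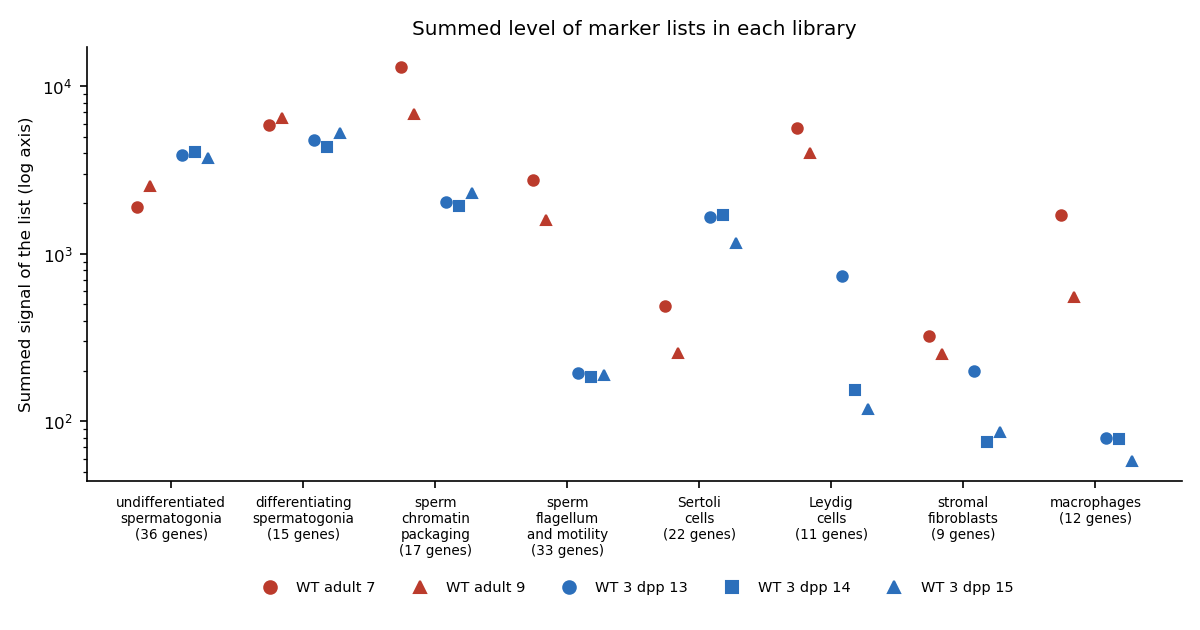
Summed signal (log axis) of 8 gene lists in each adult library (7 and 9, red) and each 3 dpp library (13, 14 and 15, blue). Packaging, flagellum, Leydig cell and macrophage sums are higher in both adult libraries and highest in library 7. The Sertoli cell and undifferentiated spermatogonia sums are lower in adults, and library 13 stands above the other 3 dpp libraries for Leydig cells.

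Other cell types gave smaller signals. Of 8 peritubular myoid genes 1 rose and 3 fell, with sums of 85.3 and 55.8 in adults and 61.0, 65.7 and 41.7 at 3 dpp. The filter let in 1 of the 8 through the 3 dpp libraries alone. Actg2, a smooth muscle actin, was the gene that rose, with 45.9 and 21.7 in adults and 1.48, 1.59 and 0.63 at 3 dpp, and Acta2, Des and Cnn1 fell, Cnn1 by 1.06 (SE 0.21). Des did not pass without adult library 7 (adjusted p = 0.13), nor Acta2 without adult library 9 (0.10). Of 9 stromal genes 1 rose and 4 fell, with sums of 322 and 251 in adults and 199, 74.8 and 86.8 at 3 dpp. The filter let in 2 of the 9 through the 3 dpp libraries alone. The gene that rose, Ptgds (2.88 ± 0.96), did not pass without either adult library (adjusted p = 0.12 without library 7 and 0.076 without library 9), nor without 3 dpp library 15 (0.062). Those that fell were Col1a2, Dcn, Pdgfra and Col3a1, the last with 0.604 and 0.429 in adults and 40.3, 5.71 and 10.2 at 3 dpp (-3.27 ± 0.57). Pdgfra did not pass without adult library 9 (adjusted p = 0.053). Of 6 endothelial genes 0 rose and 2 fell, Pecam1 by 1.59 (SE 0.30) and Kdr by 0.68 (SE 0.20), the second not without adult library 9 (adjusted p = 0.13) or 3 dpp library 14 (0.051). The filter let in 2 of the 6 endothelial genes through the 3 dpp libraries alone. None of the 3 tested erythroid genes passed. Of 23 immediate early and dissociation stress genes, 3 rose and 6 fell (median -0.12). The falls lay near the 23.7% lower of all tested genes, and the gains below the 27% higher. Egr1 had 96.3 and 75.6 in adults and 431, 361 and 288 at 3 dpp (-2.05 ± 0.20), and Egr2 fell by 3.15 (SE 0.35). Klf2 rose by 2.06 ± 0.36, and so did the chaperone genes Hspa1a and Hspa1b, near-identical copies that cannot be told apart here.

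The remaining genes among the 15 largest gains are less tied to a single structure of the sperm. Lcn2, a secreted iron-siderophore carrier, had 392 and 247 in adults and at most 0.170 at 3 dpp (8.18 ± 0.84). Crisp2, a secretory protein of the sperm head and tail (7.17 ± 0.35), Spz1, a helix-loop-helix factor of the testis (7.02 ± 0.34), Iqcf3 (6.58 ± 0.37) and the lipid-metabolizing Hrasls5 (6.47 ± 0.33) followed. Gsg1, a germ cell membrane protein, had 323 and 152 in adults and 1.88, 0.892 and 1.18 at 3 dpp (6.61 ± 0.36). Hmgb4, an HMG-box protein of spermatids, had 156 and 61.0 in adults and was listed at 0 in every WT library of 3 and 7 dpp, so that no fold is given.

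Several of the 15 largest losses are known mainly from other tissues. Nefm, a neurofilament subunit, read 160, 161 and 119 at 3 dpp, 4.77 and 7.40 at 7 dpp, and 1.05 and 0.767 in adults (-6.26 ± 0.64). The matricellular gene Ccn1 read 162, 126 and 110 at 3 dpp, 118 and 62.3 at 7 dpp, and 1.99 and 1.11 in adults (-5.71 ± 0.63). Most of the fall of Nefm thus lay before 7 dpp and that of Ccn1 after it. The estrogen-forming enzyme Hsd17b1 fell by 4.97 (SE 0.45), and the neuronal genes Nxph4 and Sez6 by 4.43 (SE 0.34) and 4.41 (SE 0.50). Car6, a secreted carbonic anhydrase (-4.41 ± 0.36), Plekhh3 (-4.19 ± 0.38), the gamma-tubulin Tubg2 (-3.92 ± 0.47) and the ephrin receptor Epha2 (-3.90 ± 0.33) completed the list, and at 7 dpp each of these 7 genes was below 3 dpp.

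Some genes changed at 7 dpp and had returned in adults. They were counted where 7 dpp differed from 3 dpp, adults differed from 7 dpp in the opposite direction, and the remaining difference between adults and 3 dpp did not pass and was small beside the first step (under 50% of its size). By this rule 139 genes (0.831%) were up at 7 dpp only and 174 (1.04%) were down at 7 dpp only. Because both steps use the same 7 dpp libraries, any value common to those 2 libraries raises this count. It ranged from 60 to 506 genes in all when single libraries were left out. At 7 dpp 3286 of all tested genes differed from 3 dpp (19.7%), and in adults 5283 from 7 dpp (31.6%; 18.6% higher and 13% lower). The median steps were 0.46 and -0.47 for those up at 7 dpp, and -0.84 and 0.79 for those down.

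Up at 7 dpp only was Cldn11, a tight junction protein of Sertoli cells, with 11.8, 7.64 and 8.75 at 3 dpp, 55.5 and 30.5 at 7 dpp, and 11.1 and 4.81 in adults. The step up was 2.04 ± 0.50 and the step down -2.33 ± 0.55, but the first did not pass without 7 dpp library 2 (adjusted p = 0.13). Taf9b, an X-linked subunit of the general transcription machinery, read 132, 139 and 181 at 3 dpp, 275 and 283 at 7 dpp, and 175 and 192 in adults. Its 7 dpp step of 0.90 ± 0.13 passed whichever library was left out. The clock-controlled repressor Ciart behaved alike (0.76 ± 0.10, then -0.57 ± 0.11), as did the Wnt enhancer Rspo4 (0.84 ± 0.14, then -0.50 ± 0.15) and the lipid transporter Mfsd2a (0.79 ± 0.15, then -0.62 ± 0.16). Hmgn5, Tro and Pdha2 were also named by the rule, and each lost its 7 dpp call without 7 dpp library 2 (adjusted p of 0.078, 0.058 and 0.097), Hmgn5 also without 7 dpp library 3 (0.098) or 3 dpp library 13 (0.055) or 14 (0.064).

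Down at 7 dpp only was Zmynd15, a repressor of spermatid genes, with 8.60, 10.2 and 6.75 at 3 dpp, 1.26 and 1.33 at 7 dpp, and 13.9 and 10.4 in adults (-2.04 ± 0.30, then 2.50 ± 0.32). The retinal reductase Dhrs3 read 8.89, 11.0 and 5.04 at 3 dpp, 1.31 and 0.911 at 7 dpp, and 12.9 and 5.59 in adults. In both genes the 7 dpp libraries lay below all others, while adult and 3 dpp values overlapped for Dhrs3 and, for Zmynd15, both adult values lay just above those of 3 dpp. Fcer1g (-2.94 ± 0.59, then 3.45 ± 0.65) and Cyth4 (-1.85 ± 0.35, then 1.85 ± 0.39) are genes of blood cells. The macrophage sums given above were 57.8 to 79.0 at 3 dpp, 19.8 and 20.5 at 7 dpp, and 1717 and 550 in adults, and their part in both genes was not tested. The adhesion molecule Icam1 (-1.76 ± 0.28, then 1.24 ± 0.31), the phosphatase Ppm1j (-2.35 ± 0.37, then 1.54 ± 0.41) and the glycosyltransferase B4galnt1 (-1.81 ± 0.39, then 1.65 ± 0.42) went the same way, the first step of B4galnt1 not passing without 7 dpp library 2 (adjusted p = 0.073).

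The same interval in the KO libraries, which share no library with the WT ones, gave 9779 genes past the threshold (58.5%), 31.6% higher and 26.9% lower. Both intervals take the spread of each gene from the same fit, so their calls are not independent. Akt1s1 itself still read 43.1, 45.2 and 47.4 in KO adults and 35.2 and 33.4 in KO at 3 dpp, below every WT library of the same age but not absent, and as the labels do not give the deleted stretch, this level does not check the allele. Of the 4514 genes higher in WT adults, 3686 (81.7%) also passed as higher in KO adults (69.9% of the genes higher there) and 12 as lower. Of the 3959 lower in WT adults, 3219 (81.3%) also passed as lower in KO adults (71.5% of those lower there) and 27 as higher. The 919 genes at least 4-fold higher in WT adults had a median change of 2.34 in KO and 2.93 in WT. The 289 at least 4-fold lower had one of -2.67 in KO and -2.44 in WT. These sets, like Gfra1 and Prm2, were chosen by their WT change, so KO and WT values are not on an equal footing. Gfra1 changed by -4.81 in KO and -4.27 in WT, and Prm2 by 8.10 in KO and 10.21 in WT. The flagellum list had 31 of 33 genes higher and 0 lower in KO adults, and the ribosomal list 1 higher and 74 lower. A test of the difference between the 2 intervals passed for 176 genes (1.05%).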

How the data were processed

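Libraries of cells sorted by the reporter were compared with group and age taken from the labels. The deposited signal is the authors' value per gene; kallisto, Trim Galore, DESeq2 and mm10 are named in the submitters' processing notes, and their order, versions and annotation are not given in the sources used here. Each library behaves as a per-length share (TPM) times 1 factor, so the depth cannot be read and counting error cannot be given. Because the values are not counts, limma-trend (limma 3.58.1, R 4.3.3) was fitted to log2(signal + 1) of genes at 1 or more in at least 2 of the 5 libraries, over all 15 libraries with 6 group means (9 residual degrees of freedom), with Benjamini-Hochberg adjustment over the 16721 genes. The fit was tested on simulated data. Names matched RefSeq or GENCODE symbols for 16007 genes and a single synonym for 4836, while 6285 were unmatched and never named. Promoter windows are RefSeq's on GRCm38.p6.

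The genes and lists were chosen with earlier results of these data known. Named by rule were the 15 highest and 15 lowest changes (mean signal of at least 5, no overlap between groups, no provisional name; 3 provisional genes passed over), up to 4 genes per list by p-value, the isozymes and 8 undone genes per direction. Other list members were chosen after their values were seen, and each was refitted with single libraries left out. Some genes that these rules name are not reported here. Alternatives were another pseudocount, filter, scaling, variance model, library set or length correction, and each library left out.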

Additional observations from a re-analysis of the deposited data

Results flagged for a closer look

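In 2 of the genes described, the adult against 3 dpp change differed between KO and WT by a test of the difference itself (limma, adjusted over all genes tested; 176 genes, or 1.05%, passed). Gsg1 rose by 4.24 on the log2 scale in KO and by 6.61 in WT, a difference of -2.37 ± 0.51 (SE, adjusted p = 0.047). Each of the 15 largest gains, chosen for a large change in WT, was smaller in KO, and among them only Gsg1 passed. Odf1 (-2.66, adjusted p = 0.054) and Prm2 (-2.11, adjusted p = 0.098) differed by similar amounts, so the smaller gain is not particular to Gsg1. Meioc rose by 3.29 in KO and by 1.66 in WT, a difference of 1.64 ± 0.31 (adjusted p = 0.037). The direction was higher in adults than at 3 dpp in both genotypes for both genes.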

How the results depend on the processing

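No paired analysis was possible because the library numbers are not shared between the groups. Of the 256 genes and gene changes tried under 18 alternatives, 222 passed as reported; 32 of these lost the call under at least 1 alternative, 12 others gained one, and 0 reversed. Genes called numbered 8473, and 5017 to 8055 with 1 of the 5 libraries left out (2292 to 4289 of them higher). At least 4-fold were 1208 genes (919 higher, 289 lower): with a pseudocount of 0.1 these were 1964 (1437 and 527), with 5 they were 446 (347 and 99), and with single libraries left out 598 to 1229 in all, 290 to 935 higher and 256 to 329 lower (290 higher against 308 lower without adult library 7). Quantile normalization gave 437 lower genes of at least 4-fold. It gave 4065 higher and 4850 lower genes in all (45.6% higher), against 53.3% higher as reported and 68.0% when scaled to equal totals. Genes undone after 7 dpp numbered 313 (139 up, 174 down at 7 dpp). Library weights gave 527 (274 up), a fit of the 7 WT libraries 82 up, equal totals 68 up and 281 down, quantile normalization 219 up, and single libraries left out 60 to 506 in all, 19 to 274 up and 41 to 232 down. The causes were not tested. With 2 adult libraries of unknown depth, a gene that did not pass may still differ, and low values near 1 carry an error that cannot be given.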

Other observations

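The shares of higher and lower genes on the X chromosome and on the autosomes stood apart over the interval, and the difference was not tested. Of 603 tested X-linked genes (3.61% of all tested), 116 were higher in adults (19.2%) and 217 lower (36.0%), with a median log2 change of -0.17. Of 13815 tested autosomal genes, 28.6% were higher and 25.0% lower, with a median of 0.02, and the medians of single autosomes ran from -0.07 (chromosomes 1 and 13) to 0.10 (chromosomes 7 and 17). The X-linked median was 0.00 between 3 and 7 dpp and -0.23 between 7 dpp and adults. Among the genes described above, the X-linked Akap4, Esx1 and Sox3 rose while Rpl39 fell. The genes up at 7 dpp only held 11 X-linked genes of 139 (7.91%), Taf9b, Tro and Hmgn5 among them, and those down at 7 dpp only 4 of 174 (2.3%).

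The genes with the largest gains had the shorter transcripts by median, again with no test. A transcript length was found for 86.9% of tested genes, with a median of 1408 bases, for 88.8% of the genes at least 4-fold higher in adults, with a median of 1163 bases, and for 91.3% of those at least 4-fold lower, with a median of 1478 bases. With the trend on length removed, 4029 genes were higher and 3956 lower.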
